A study of Mus musculus with 4 samples.

Results

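The regions described here were called as bound by RNA polymerase II (Pol II) in the liver and in the lung of the mouse, and not in the heart or the kidney. On chromosomes 1 to 19 and X, overlapping regions of the 4 organ lists (1 bp or more) were merged into linked regions. Of 152502 linked regions, 3321 held regions of the liver and lung lists only, with every joined region under 10000 bp. These 3321 linked regions, the members below, were thus chosen by the calls and lengths of the regions themselves, so their number, tags and lengths are given as a description, with no test. Without the length limit there were 3411, and the limit removed 90.

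The lists come from chromatin immunoprecipitation and sequencing (ChIP-seq) of Pol II in flash-frozen organs of 2 C57BL/6 mice. The antibody, 4H8, recognises the C-terminal domain of the large Pol II subunit, and all 4 organs were sheared together by PIXUL, a plate sonicator. No treatment or altered genotype is named in the labels, and neither the age and sex of the mice nor any pooling of both in a list is stated there. With 1 list per organ there are no replicates, so differences between organs carry no replicate error and no test. A position with no region fell short of that list's calling threshold, which differs from lacking polymerase.

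Pol II transcribes protein-coding genes and many noncoding RNA genes, and is found over promoters, gene bodies and active enhancers. Liver and lung epithelium both arise from the foregut endoderm, in which the forkhead factors of the FOXA family open chromatin before organ genes are switched on. Both adult organs also hold resident macrophages, a dense endothelium and enzymes that handle foreign compounds.

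Few annotated promoters lay in bases called in both organs. The RefSeq promoter table (GRCm38.p6, the assembly behind mm10) gave 34 windows of 250 bases before a start site that lay wholly inside bases shared by the liver and lung regions of a member. They belonged to 32 genes, and 18 windows belonged to 16 protein-coding genes. For the protein-coding genes, bases within the annotated gene were left off, and windows with fewer than 150 bases remaining are not shown, which left out Lepr. Of the rest, the windows shown are those of the 3 noncoding and 3 protein-coding genes ranked highest by the lower one of the 2 organs' tags, with 198 bases for Pon3 and 230 for Alpk1. The strand is that of the gene, and all positions are in GRCm38.p6. Gm32597 (chr16:52331180-52331429, plus strand) lies inside Alcam. Gm20016 (chr12:57511837-57512086, plus) is a noncoding gene beside Foxa1. Gm51783 (chr10:117456264-117456513, plus) is noncoding, and its member lies 75.4 kb from the nearest protein-coding gene, Cpsf6, and 157 bp from a heart or kidney region. Ociad2 (chr5:73338948-73339197, minus), the paraoxonase gene Pon3 (chr6:5256286-5256483, minus) and the kinase gene Alpk1 (chr3:127780548-127780777, minus) code for proteins. Capitals mark matches on either strand to 5 motifs, those of forkhead factors, C/EBP factors, the TATA box, the CCAAT box and the GC box.
Gm32597: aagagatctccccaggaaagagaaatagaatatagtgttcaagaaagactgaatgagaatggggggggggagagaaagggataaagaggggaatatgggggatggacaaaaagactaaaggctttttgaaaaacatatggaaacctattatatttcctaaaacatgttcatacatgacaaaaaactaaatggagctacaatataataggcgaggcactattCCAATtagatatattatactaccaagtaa
Gm20016: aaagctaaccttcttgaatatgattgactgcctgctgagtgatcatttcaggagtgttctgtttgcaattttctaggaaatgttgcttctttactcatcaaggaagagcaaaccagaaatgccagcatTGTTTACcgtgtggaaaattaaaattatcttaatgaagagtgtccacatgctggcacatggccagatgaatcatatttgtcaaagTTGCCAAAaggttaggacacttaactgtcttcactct
Gm51783: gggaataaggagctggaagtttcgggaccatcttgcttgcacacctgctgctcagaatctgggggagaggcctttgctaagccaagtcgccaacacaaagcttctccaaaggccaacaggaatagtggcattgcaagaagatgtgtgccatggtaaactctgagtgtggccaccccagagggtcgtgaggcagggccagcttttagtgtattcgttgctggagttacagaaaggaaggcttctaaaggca
Ociad2: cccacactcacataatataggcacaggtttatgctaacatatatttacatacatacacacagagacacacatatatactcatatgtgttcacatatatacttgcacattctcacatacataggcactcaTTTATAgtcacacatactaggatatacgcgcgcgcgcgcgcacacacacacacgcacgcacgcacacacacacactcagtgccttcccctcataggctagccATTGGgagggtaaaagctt
Pon3: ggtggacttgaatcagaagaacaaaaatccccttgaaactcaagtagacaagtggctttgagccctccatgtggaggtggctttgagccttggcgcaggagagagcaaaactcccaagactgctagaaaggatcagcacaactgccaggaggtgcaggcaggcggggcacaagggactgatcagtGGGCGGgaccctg
Alpk1: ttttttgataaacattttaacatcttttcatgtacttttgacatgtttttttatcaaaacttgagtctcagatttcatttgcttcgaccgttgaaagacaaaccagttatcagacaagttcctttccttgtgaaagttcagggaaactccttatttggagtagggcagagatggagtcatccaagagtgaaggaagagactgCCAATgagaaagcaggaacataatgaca

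The letters searched for forkhead factors were TGTTTAC, and they stood in 2 of the 34 windows (5.88%), 1 of them that of Gm20016 shown above, and in 3.19% of all 32619 windows of the same length in the table. For C/EBP the letters TTGCNNAA stood in 8.82% of the 34 against 9.62% of all. The TATA box was read as TATAAA and stood in 8.82% against 12.4%. CCAAT was found in 38.2% against 34.0%. The GC box, GGGCGG, was found in 17.6% against 33.0%. Both strands were searched, and no pattern contains another. The median G and C content was 52.6% in the 34 windows and 52.4% in all. With 34 windows these shares rest on 2 to 13 matches each, and a match is a description of letters, not of a bound site.

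The members were mostly short and weakly covered regions, as were most regions of the 2 lists under the length limit. Tag counts are the authors' values per 10000000 tags. In liver they ran from 5.73 to 419.8 with a median of 12.2, and in lung from 6.39 to 202.7 with a median of 11.7. Over all regions of those lists under the length limit the medians were 13 and 12.4, so low tags were not particular to members. The tag thresholds stated for the 2 lists equal 6.98 in liver and 8.27 in lung, so many members lay near them. Since the lowest called members lay below both values, the thresholds were no strict floor on the tag counts given here. In both organs at once, 1304 members (39.3%) had at least 10 tags, 392 (11.8%) at least 20, 65 (1.96%) at least 50 and 12 (0.361%) at least 100. Another 527 (15.9%) were under 10 tags in both. The heart threshold was the highest of the 4 at 9.11, with 7.23 in kidney, and the heart list rested on the fewest tags (9880184, against 20058183 in liver). The part of this difference in the absence of heart regions was not tested.

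Most members paired a single liver region with a single lung region (3049 of 3321). Called length had a median of 812 bp (liver) and 656 bp (lung), beside 838 and 684 bp over all regions under the length limit. A single window of 500 bp, the smallest call, made up 29.6% of members in liver and 41.6% in lung. Among all regions under the length limit these shares were similar, at 30.8% and 38.6%. Both organs were at 500 bp in 437 members (13.2%). A median of 87.4% of the shorter region lay inside the region of the other organ, 78.4% of members shared at least 50% of it, and 37.2% shared all of it. The shared stretch had a median of 500 bp and the whole member a median span of 1388 bp, so the bases called in both organs were a minority of a typical member. Just inside the length limit, a region on chromosome 1 (170689709 to 170699680, 9971 bp) had 293.9 tags in liver and 9.78 in lung, and one of 9987 bp on chromosome 10 had 217.4 and 8.65. Just outside it, a lung region of 10010 bp on chromosome 5 had 13.46 tags in liver and 208.3 in lung, and a liver region of 10012 bp in Taok3 had 138.6 and 33.5.

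**Figure D1:**
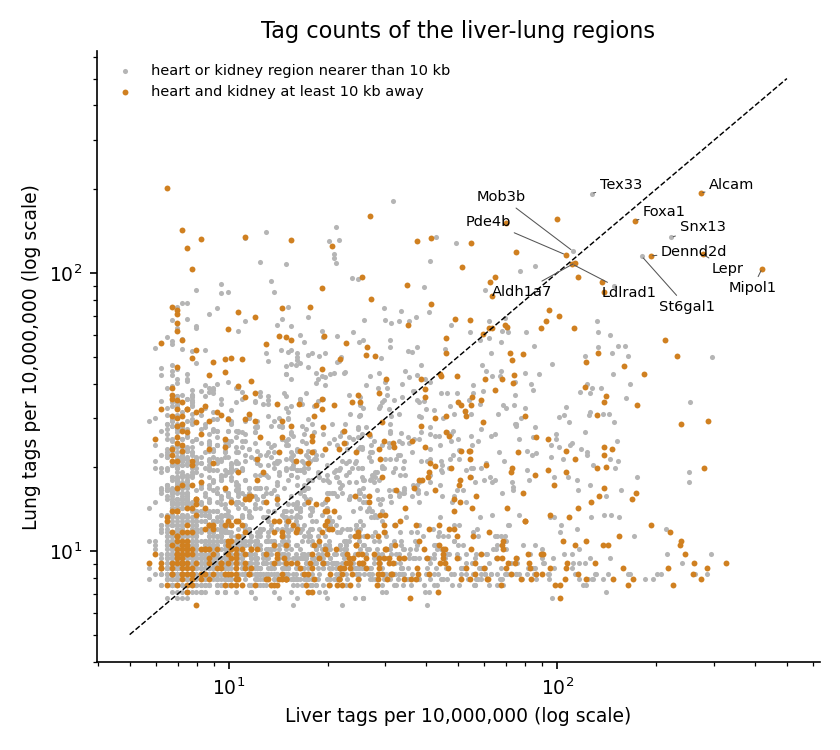
Tags per 10000000 in liver (horizontal, log scale) against lung (vertical, log scale) for the 3321 members, with orange points for members that have no heart or kidney region nearer than 10 kb and a dashed line of equal tags. Names give the gene that holds or lies nearest to each of the 12 members with at least 100 tags in both organs. Points crowd at the low ends of both axes.

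Within a member the 2 organs rarely had equal tags. Liver tags were higher in 1638 members, lung tags in 1674, and 9 were equal. The log2 ratio of lung to liver tags had a median of 0.01 and ran from -5.18 to 4.97, with 594 members at least 2-fold higher in lung and 786 in liver. Per kb of called sequence the ratio was much narrower, with a median of 0.22, a range of -1.34 to 1.15, and 6 members at least 2-fold higher in lung and 13 in liver. Differences in tags between the organs thus went with differences in called length. Median tags per kb in members were 14.9 in liver and 17.3 in lung, beside 14.96 and 17.5 over all regions of those lists under the length limit.

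Heart and kidney regions were often close by. The nearest one lay at a median of 1995 bp (quartiles 686 and 6550 bp), and 1090 members (32.8%, exact Clopper-Pearson 95% interval 31.2 to 34.4%) had one within 1000 bp. For 624 members (18.8%, 17.5 to 20.2%) both organs were at least 10 kb away, and for 136 (4.10%) at least 50 kb. All intervals here cover counting error only. Among the other 5 pairs of organs, chosen by the same rule, the share with the left-out organs at least 10 kb away was 27.7% for kidney with liver, 29.3% for heart with lung, 20.3% for kidney with lung, 18.4% for heart with kidney and 14.8% for heart with liver. The liver and lung members stood between these, so isolation from the other organs was not particular to them.

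**Figure D2:**
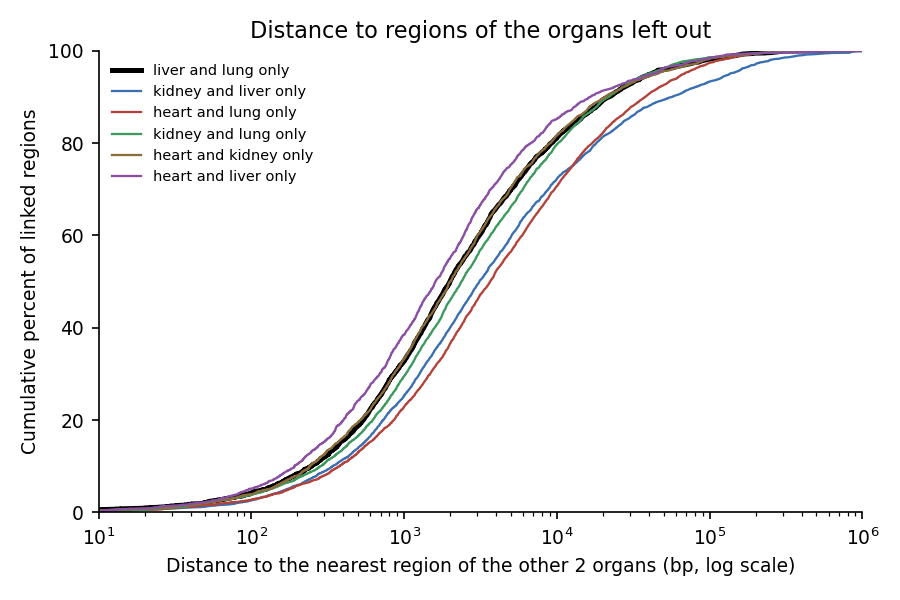
Cumulative percent of linked regions (vertical) by distance to the nearest region of the 2 organs left out (horizontal, bp, log scale), 1 line for each of the 6 pairs of organs. The black line of liver and lung (median 1995 bp) runs close to that of heart and kidney (1998 bp) and left of kidney with liver (3107 bp) and heart with lung (3654 bp).

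The 624 isolated members were longer in liver. Their median called length in liver was 1327 bp, against 777 bp in the members with a nearer heart or kidney region. Their median liver tags were 20.9, against 11.5 in those 2697 members, while median lung tags were 12.4 and 11.7. Of the isolated members 41.7% lay outside protein-coding genes, against 26.8% of the others, and 10.4% lay within 1 kb of a start site, against 4.38%. Near a protein-coding gene end lay 13.3% of the isolated members and 9.31% of the others. The isolation was thus seen alongside a wider liver call and larger shares both outside genes and near gene ends and start sites.

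The 12 members with the most tags in both organs were split between genes and their flanks, with 6 over a protein-coding gene and 6 outside. The highest was inside Alcam, an adhesion molecule gene, at the noncoding gene Gm32597 whose promoter is printed above (chromosome 16, 52328316 to 52338307). It had 273.5 tags in liver and 193.6 in lung, and the nearest heart or kidney region was 60.9 kb away. Next came a member of 11.3 kb over Gm20016 and Gm2568 (chromosome 12, 57507466 to 57518752), 21.9 kb from Foxa1, with 172.2 tags in liver and 154.2 in lung. Lung was lower than liver in both, by less than 2-fold.

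A member 160.3 kb from Snx13, a sorting nexin gene, had 222.33 tags in liver and 134.2 in lung, with a heart or kidney region 8.98 kb away. The member 2.11 kb from Tex33 was higher in lung, at 192.9 tags against 127.2. The member 17.2 kb before Lepr, the leptin receptor gene, had 277.7 tags in liver and 116.58 in lung (chromosome 4, 101690026 to 101699929). These 3 members lay outside protein-coding genes, the first of them remote from any. A member across Dennd2d and Cept1, a gene for the last step of phosphatidylcholine and phosphatidylethanolamine synthesis, had 192.4 tags in liver and 115.1 in lung. One inside St6gal1, which adds sialic acid to glycoproteins, had 181 and 114.65. The remaining 5 were close to even between the organs, apart from the last. The member 5.51 kb from Mob3b had 111.38 tags in liver and 120 in lung, and the one 27.5 kb from Pde4b, a cyclic AMP phosphodiesterase gene, had 106 and 116.2. At an end of Aldh1a7, an aldehyde dehydrogenase gene, the member had 113.18 tags in liver and 108.6 in lung, with heart and kidney 190.4 kb away. The member in Ldlrad1 had 111.2 and 107.5. The last, in Mipol1 over the noncoding gene Gm16246, had the most liver tags of all members, 419.8, and 103.4 in lung.

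A different set led by region score, the caller's own value, which was used within each list only. The 8 members with the best worse rank included one 34.0 kb from Scnn1b, a subunit gene of the epithelial sodium channel (30.12 tags in liver, 41.7 in lung), and one beside the start of Tcf7, a T cell transcription factor gene (15.5 and 13.9). Others lay 7.91 kb from the zinc finger gene Zfp53 (62.1 and 66.9), 5.57 kb from the forkhead gene Foxq1 (253.3 and 34.2) and 9.44 kb from Kdm2b, a histone demethylase gene (27.9 and 19.2). The last 3 were inside Aknad1 (22.4 and 27.1), the amino acid transporter gene Slc38a1 (16.5 and 35.3) and Rtn4rl1 (28.9 and 33.1). None of these 8 was among the 12 with the most tags, and only the Foxq1 member differed by more than 5-fold between the organs.

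Members were for the most part away from gene starts. Of the 3321, 334 (10.1%, interval 9.05 to 11.1%) came within 1 kb of either end of a protein-coding gene, and 183 (5.51%, 4.76 to 6.34%) lay within 1 kb of a start site in the promoter table. All regions under the length limit did so more often, 16.1% of liver and 14.3% of lung regions at gene ends and 11.3% and 10.6% at start sites. The other pairs of organs also lay below those lists, at 8.14% (heart with lung) to 13.1% (kidney with liver) for gene ends. Members outside protein-coding genes numbered 982 (29.6%, 28.0 to 31.2%), against 27.7% of liver and 28.9% of lung regions, and 766 (23.1%) overlapped no annotated gene of any kind. Of the 982, 783 had a protein-coding gene within 50 kb and 95 had none within 100 kb.

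**Figure D3:**
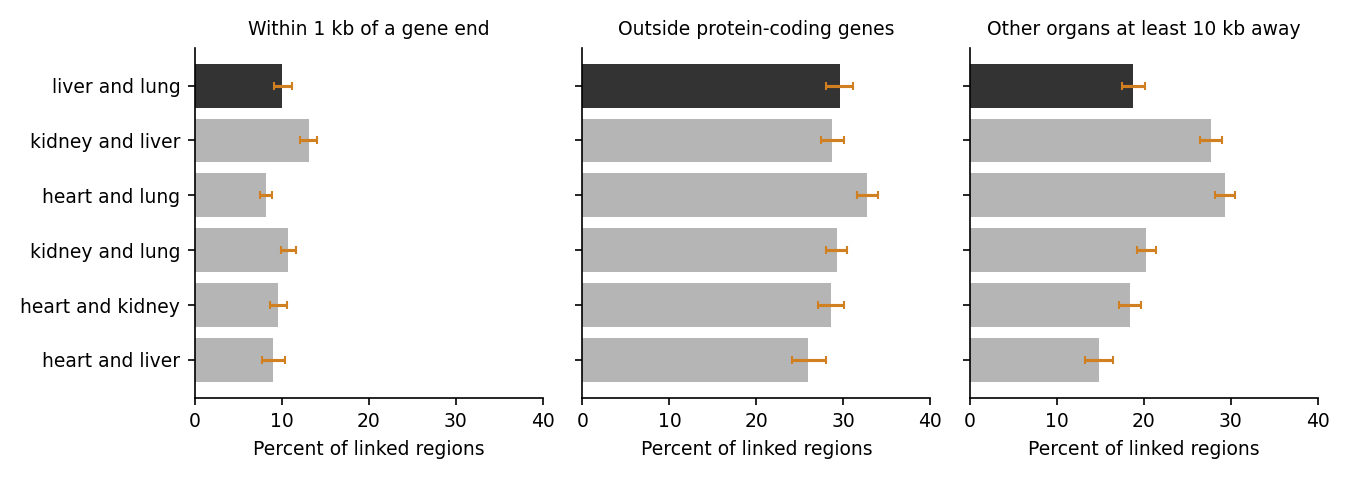
Percent of linked regions of each pair of organs (bars, with exact 95% binomial intervals) that lay within 1 kb of a gene end, outside protein-coding genes, or at least 10 kb from regions of the organs left out. Liver and lung (black; 10.1%, 29.6% and 18.8%) lie inside the range of the 5 other pairs (grey) in all 3 panels.

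By chromosome, members made up 1.57% of linked regions on chromosome 8 to 2.87% on chromosome 16, with 2.18% over all. Chromosome X held 44. A member overlapped the span of 1539 of 21631 protein-coding genes (7.11%), and 359 genes (1.66%) had one within 1 kb of an end. Of 17274 coding genes with a start site in RefSeq's promoter windows, 122 (0.706%) had a member within 1 kb of a start site. Genes with a member in the span were long, with a median of 58.1 kb against 17.3 kb over all genes.

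At the start sites of coding genes lay 118 members. The member at Elapor1 had 75 tags in liver and 118.8 in lung (chromosome 3, 108531837 to 108537750). At Tnfrsf19, a receptor gene of the tumour necrosis factor family, the values were 94.5 and 73.3, with no heart or kidney region for 91.3 kb. At Lepr they were 122.1 and 47.8, with the nearest heart or kidney region 37.5 kb away. The keratin gene Krt23 had 45.9 and 51.5, Ociad2 74.3 and 40.6, and Rassf5, a Ras effector gene, 166.3 and 39.8. Liver was higher at 4 of these 6 starts and lung at 2. After Aldh1a7, described above, these genes led by the lower of the 2 tag counts, and they were chosen after their values were seen.

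Lepr encodes the receptor of leptin. Its span was covered over 17.7% in liver and 4.03% in lung, and not at all in heart or kidney. The neighbouring gene Leprot was covered over 16.1% in liver, 13.0% in lung, 21.5% in kidney and 8.80% in heart. Calls over Lepr were thus limited to liver and lung in these lists, whereas those over Leprot came from all 4.

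Foxp1, a forkhead transcription factor gene, held the most members, 34 of its 156 linked regions. Liver tags of the 34 ran from 6.23 to 84.8 and lung tags from 7.52 to 128.2, and 53 of the linked regions included heart or kidney. Rad51b, a gene of homologous recombination, held 19 of 141, and Alcam and Thada 13 each, of 55 and 70. Farp1 held 9, and Cadm1, Hc, Ralgapa2, Sil1 and Usp34 held 8 each. Hc, which encodes complement component C5, was the only one of these 10 genes under 100 kb, and 8 of its 13 linked regions were members. The others spanned 187.4 to 597.4 kb. Of the 1539 genes, 1120 had 1 member and 46 had 5 or more. In the other 8 genes besides Hc and Alcam, at least 3 linked regions included heart or kidney, as did 4 in Alcam and 1 in Hc.

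Neighbouring members formed runs. With gaps of up to 10 kb, 14 runs of 5 or more held 92 members, 110 runs of 3 or more held 403, and 2304 members stood alone. The longest run, of 11 members over 61.0 kb, covered Pon3, a lactonase gene of the paraoxonase family (chromosome 6, 5202725 to 5263746). Its members had 9.47 to 288.4 tags in liver and 8.65 to 92.4 in lung, with liver higher in 7 and lung in 4. The liver list covered 58.1% of the run and the lung list 33.9%, with no heart or kidney region inside it. The member of the Pon3 start, whose promoter is printed above, had 52.8 tags in liver and 30.5 in lung. Liver tags led toward the Pon1 side of the run, with 288.4 against 29.4 in the member from 5217552 to 5224236. Lung tags led at the Pon2 side, with 48.9 against 9.72 in the last member. The neighbours differed, since Pon1 was covered over 100% in liver and 10.4% in lung, and Pon2 over 6.04% and 36.8%, with 2.97% in heart.

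Alcam held a run of 8 members over 49.97 kb, without any heart or kidney region. Liver tags were 35.1, 6.98, 49.6, 273.5, 6.98, 26.9, 16.2 and 6.23 along the chromosome, and lung tags 65.1, 35, 42.5, 193.6, 16.9, 160.6, 12 and 56. Lung was higher in 5 of the 8 and liver in 3, and the fourth member was the highest in both organs. A further member of Alcam (chromosome 16, 52420738 to 52431349) had 99.68 tags in liver and 155.7 in lung, and heart and kidney were 153.4 kb away. Over the whole gene the lung list covered 49.2%, the liver list 29.0%, the kidney list 1.44% and the heart list 0%.

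The run of 8 in Hc was uneven. Liver tags were higher in all 8, at 23.4 to 149.3, and lung tags were 6.77 to 63.17, with 4 of the lung regions at 500 bp. The liver list covered 81.2% of this run and the lung list 14.4%. A run of 8 over Tmem59, Ldlrad1 and Lrrc42 leaned toward lung, with 34.4% covered in liver and 52.3% in lung. Lung tags were higher in 5 of its members and liver tags in 3, and 2 linked regions within it included kidney. Runs of 7 and 6 in Rad51b, of 7 beside Pde4b, and of 7 and 5 in Foxp1 had lung higher in most members. Total tags were yet higher in liver for the Rad51b run of 7 (113.23 against 93.4 in lung). The same held for the Foxp1 run of 5 (116.63 against 82.8), while lung totals were higher in the others. Runs of 5 lay in Pigu, across Aknad1 and Stxbp3, in Cadm1, at Hcar2, with 1 member over that gene, and at Cyp2b10, with 4 members over it. In Cadm1, a cell adhesion gene, liver was higher in 4 of 5, with median tags of 55.6 against 19.97 in lung.

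Hcar2, a receptor gene for ketone bodies and niacin, was the only protein-coding gene with at least 50% of its span in bases shared by liver and lung members (75.0% of 1.95 kb). The member there had 40.6 tags in liver and 72.2 in lung. At Cyp2b10, an inducible drug-metabolising cytochrome P450 gene, the 5 members of the run, the last of them outside the gene, had 6.73, 21.4, 43.6, 54.6 and 7.73 tags in liver and 75.2, 7.52, 12.4, 33.5 and 8.65 in lung. Coverage of its span was close, 49.4% in liver and 51.4% in lung, with none in heart or kidney, yet only part of the called bases coincided. Close P450 paralogs could share reads with Cyp2b10, and the sources used here do not say how such reads were placed.

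The flank of Foxa1, a pioneer factor of foregut endoderm, held 5 members within 150 kb. Liver tags were 41.18, 6.23, 419.8, 172.2 and 12.2, and lung tags 77.5, 8.65, 103.4, 154.2 and 8.27, with the last member 9.75 kb from the gene. The members with 41.18, 6.23 and 419.8 tags in liver lay inside another gene, Mipol1 (chromosome 12, 57230425 to 57457241). Of these, the member with 419.8 is the Mipol1 member described above. The member with 172.2 tags in liver is the Gm20016 member, whose promoter window holds the forkhead and C/EBP letters printed above. Foxa1 itself held no member. Its linked region included all 4 organs, with 774.5 tags in liver, 381.3 in lung, 178.7 in kidney and 9.62 in heart, and its span was covered over 97.5% in liver, 100% in lung, 63.7% in kidney and 0% in heart. From the first member to just past Foxa1 (chromosome 12, 57397860 to 57552108) lay 7 linked regions of the liver list alone, with up to 213.9 tags. The same stretch held 13 of the lung list alone, with up to 82.3. The last region of each lay beyond Foxa1, starting at 57548772 (liver) and 57550513 (lung).

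**Figure D4:**
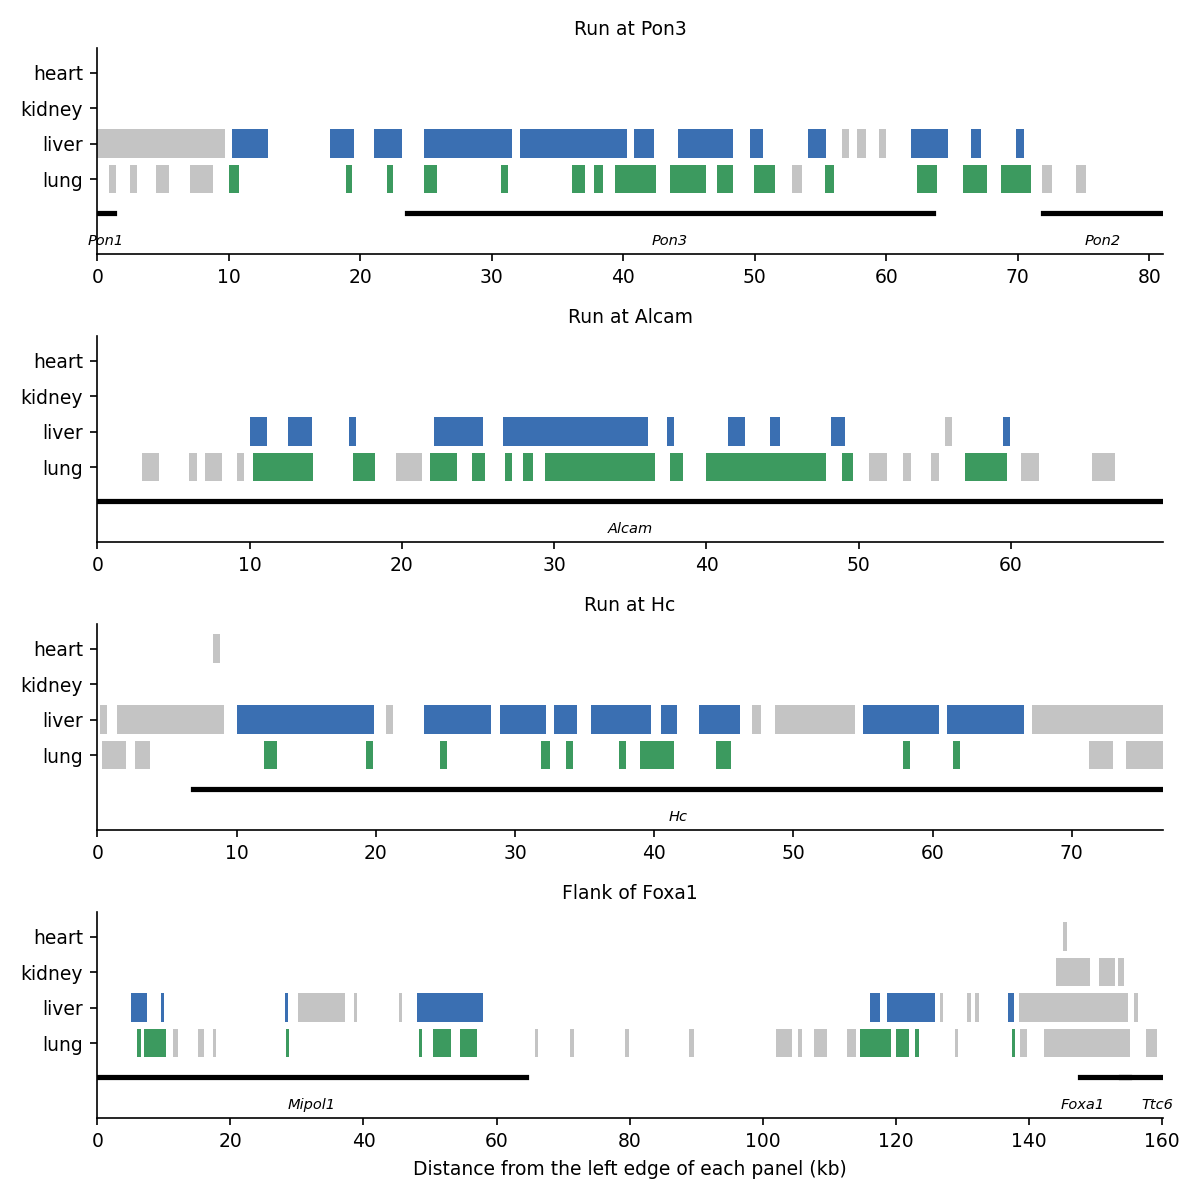
Called regions of heart, kidney, liver and lung (rows) along the runs at Pon3, Alcam and Hc and the flank of Foxa1, with distance from the left edge in kb on the horizontal axis and black bars for protein-coding genes. Blue (liver) and green (lung) boxes are regions of members and grey boxes are other regions. No heart or kidney box falls inside the runs, and liver boxes fill more of Hc (81.2% of the run) than lung boxes (14.4%).

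Gene lists for cell types and functions, 486 places in 19 lists, were set beside the members. The organ labels were checked first on the covered share of each gene's span. At least 50% was covered in 43 of 45 hepatocyte genes in liver, against 1 in heart, 8 in kidney and 1 in lung. Of 30 alveolar and airway epithelial genes 24 were so covered in lung, against 4, 8 and 5 in heart, kidney and liver. The cardiomyocyte list reached 23 of 25 in heart and the kidney tubule list 22 of 25 in kidney. Each list thus carried the genes of its organ.

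Lipid and phospholipid synthesis had the largest share of genes with a member in the span, 8 of 36 (22.2%), where all genes gave 7.11%. The median span of the list was 42.2 kb against 17.3 kb over all genes, and longer genes hold more members. Kidney with liver had 5 of 36 by the same count, heart with liver 4, and kidney with lung 2. Over all genes these 3 pairs gave 9.25%, 4.60% and 9.86%. The list's members included Elovl5, a fatty acid elongase gene, at 70.8 tags in liver and 61.3 in lung. Scd1, the stearoyl desaturase gene, had 6.48 and 38.7, and Pemt, which methylates phosphatidylethanolamine, had 106.7 and 8.65 in its stronger member. Srebf2 and Scap, of the cholesterol-sensing pathway, held members of 40.1 and 6.39 and of 6.23 and 8.65. The remaining members were in Acaca (6.73 and 9.02), Acsl4 (24.4 and 10.5) and Pcyt1a (12 and 14.3). Only Elovl5 was above 20 tags in both organs. Near a gene end the list had 1 of 36 (2.78%, all genes 1.66%), at Scap (10.2 and 10.5).

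Acute phase genes, which the liver switches on in inflammation, had a member near an end in 3 of 26 (11.5%), where all genes gave 1.66%. Kidney with lung had 1 of 26, where all genes gave 2.77% for that pair. At Saa1, a serum amyloid gene, the member had 201.7 tags in liver and 8.27 in lung. At Lbp, the lipopolysaccharide-binding protein gene, it had 169.5 and 7.9. At Orm2, an orosomucoid gene, it had 17.9 and 25.9. Lung regions at Saa1 and Lbp were single windows of 500 bp, so a strong liver call met a lung call near the threshold, and only Orm2 was of like size in both. Saa1 and Orm2 have close paralogs next to them, and reads may be shared among these. In the span the count was 4 of 26 (15.4%, all genes 7.11%). This added Il1r1, the interleukin 1 receptor gene, which held 3 members (liver 17.9 to 72.3, lung 7.52 to 19.18).

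Alveolar and airway epithelial genes had a member in the span in 5 of 30 (16.7%, all genes 7.11%) and near an end in 2 (6.67%, all genes 1.66%). By the same counts kidney with lung had 5 and 3 (all genes 9.86% and 2.77%), and heart with lung 4 and 2 (all genes 9.20% and 2.38%). At Krt18 and Krt8, keratin genes of simple epithelia, the members near an end had 16.2 tags in liver and 51.5 in lung, and 13 and 10.2. Inside Sftpd, the surfactant protein D gene, the values were 7.23 and 57.5, with no heart or kidney region within 100 kb, and inside Abca3, a lipid transporter gene of surfactant, 6.73 and 39.1. Rtkn2 had 7.23 and 21.4. Outside Sftpd a heart or kidney region was close, at 368 bp from the Abca3 member and 1831 bp from that of Rtkn2. The distance was 2696 bp for Krt18, and 601 and 3377 bp for the members of Krt8. The kidney list covered 63.6% of Abca3, against 42.3% in liver and 85.0% in lung. Among the members of these genes no liver call was longer than 983 bp, and lung tags were higher except in the members of Krt8. Liver regions that were not part of members also lay over these genes, as the liver coverage of Abca3 shows. Hepatocyte genes had a member in 1 of 45 by either count (2.22%, all genes 7.11% in the span and 1.66% near an end). It was at Hpx, the hemopexin gene, with 166.8 tags in liver and 8.27 in lung.

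Xenobiotic metabolism had a member in the span in 4 of 37 (10.8%, all genes 7.11%), Aldh1a1, Aldh1a7, Aox1 and Cyp2b10, and near an end in 1 (2.70%, all genes 1.66%), Aldh1a7. Kidney with lung had 5 and 4 (all genes 9.86% and 2.77%). The strongest member of Aldh1a1, a retinal dehydrogenase gene, had 15.5 and 47 tags in liver and lung, and the member of the aldehyde oxidase gene Aox1 had 73.5 and 16.92. Liver sinusoidal endothelial genes reached 3 of 15 in the span (20%, all genes 7.11%) and 1 near an end (6.67%, all genes 1.66%). For heart with lung they also reached 3 in the span, where all genes gave 9.20%. Oit3 had 71 and 12.4 there, and Plxnc1 8.23 and 26.3. Fcgr2b, an inhibitory Fc receptor gene, had 10.5 and 10.9 near an end.

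The remaining lists had 0 to 2 genes by either count, set beside 7.11% of all genes in the span and 1.66% near an end. Macrophage genes had 2 of 33 in the span (6.06%), Fcgr3 (7.73 and 33.5) and Spi1 (12.2 and 27.8), and 0 near an end. The lists for lymphocytes (Tcf7), interferon response (Ifit3, 8.72 and 11.3), antigen presentation (H2-Q7, 16.5 and 13.9) and housekeeping (Tfrc, 12.5 and 8.27) had 1 gene each near an end (3.57 to 5% of the list), and general endothelial (Ptprb, 7.23 and 24.1) and lung endothelial and mesenchymal genes (Hpgd, 24.9 and 56.4 in the stronger of its members) had 1 each in the span (5%). The 25 foregut and epithelial transcription factor genes held 0 members, Foxa1 included, although 16 of them were covered over at least 50% in liver and 12 in lung. The neutrophil and monocyte, fibroblast and stellate, cardiomyocyte, kidney tubule and erythroid lists also had 0. Fcgr3 and Fcgr2b, and H2-Q7 and its neighbours, are close copies of other genes, so their regions are uncertain.

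**Figure D5:**
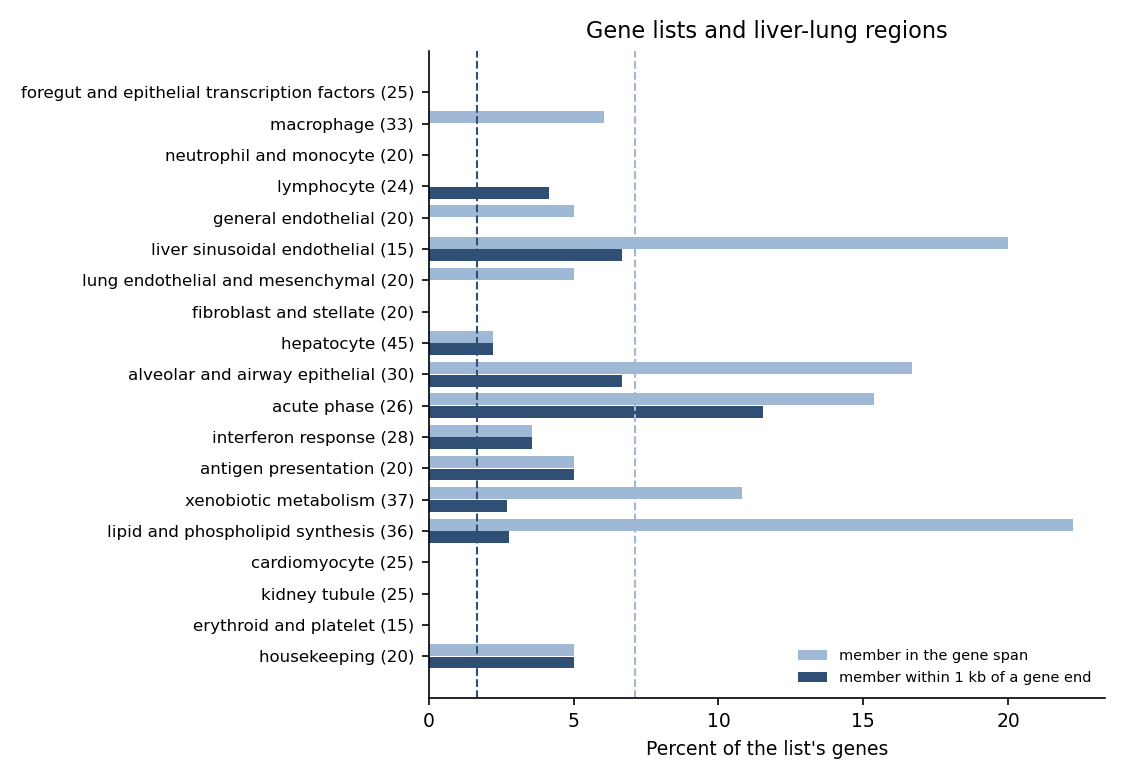
Percent of the genes of each of 19 lists (number of matched genes in brackets) with a member in the span (light bars) or within 1 kb of an end (dark bars). Dashed lines mark all protein-coding genes (7.11% and 1.66%), and the lipid and phospholipid synthesis list (22.2% in the span) and the acute phase list (11.5% near an end) reach farthest.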

How the data were processed

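Deposited lists of Pol II regions were used, 1 per organ. The submitters' processing notes name mm10, Bowtie2 2.2.8 and HOMER 4.8. Per the file headers, the authors joined windows of 500 bp in histone style at a Poisson p threshold of 0.001. The deposited signal is a tag count that the authors scaled to 10000000 tags; the deposited score is the caller's own, and lengths were also deposited. The recorded command names no control library. The lists rested on 9880184 to 20058183 tags.

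Regions were joined and counted in Python 3.11.15 (pandas 2.3.3). On simulated regions, 100% of 627 joined stretches were equal to those from per-base counts. The number of overlap pairs, 1153, equalled that from a direct comparison of region starts and ends. The gene table (GRCm38.p6) gives no strand, so the start window of the plan became 1 kb at either gene end; start sites of the promoter table were added. Of 476 list symbols 474 matched. The members and lists were chosen with earlier results of these data known. The text names the 12 members with the highest lower tag count, the 8 best by score, the 10 genes with most members, list genes with a member, and the regions nearest the length limit; others were chosen after their values were seen. Alternatives changed the overlap, score, tags, lengths, windows and gene table.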

Additional observations from a re-analysis of the deposited data

How the results depend on the processing

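Of 41 alternative values, 19 stayed close to the main one and 22 moved. Requiring at least 10 tags of each region gave 1730 liver and lung linked regions, with 13.8% near a gene end. The top 50% of each list by score gave 1881, with 19.4% near an end and 27.2% outside genes. Neither set was a subset of the 3321 members. Only 1304 of those had at least 10 tags in both organs, and the score setting raised the genes with a member near an end from 359 to 424. These shares thus do not describe the stronger of the 3321 members. Leaving out members with a heart or kidney region within 1000 bp gave 32.3% outside genes and 226 genes with a member near an end. Windows of 500 and 2500 bp at gene ends gave 8.34% and 15.7%, the latter with 564 genes, and all annotated genes gave 16.0% near an end, 23.1% outside genes and 598 genes. Of settings added after the data were seen, start sites gave 5.51%. A distance of 10000 bp to heart and kidney left 624 members, 13.3% near an end, 41.7% outside genes and 84 genes. More than 500 bp called in both organs left 1393 members, 11.9%, 31.2% and 177 genes in the same order. The cause of these shifts was not tested. No paired analysis was possible because each organ has 1 list. With 1 list per organ, a missing heart or kidney region may lie below a threshold that differed between the lists.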
